A study of Mus musculus with 6 samples.

Results

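Aldo-keto reductases and glutathione transferases were described in MB49, a mouse bladder cancer cell line, by the rule of every protein-coding gene whose name starts with Akr1 or Akr7, or with Gst followed by one of the class letters a, m, o, p, k, z or t. The rule gave 39 of the 54532 genes of the table, 17 aldo-keto reductases and 22 glutathione transferases, and it used names only. Bulk RNA-seq covered 6 libraries of the Y-positive form of the line, in 2 groups of 3. Y-Scr is the control, made with a guide RNA that targets nothing, and Y-KO is labelled as a CRISPR knockout of Y. The sources used here do not name its guide. Per the labels' protocols, sorting on the red fluorescent marker tRFP came before growth from single cells into clones, so the effect of the guide and differences between clones cannot be told apart. All 6 libraries belong to batch 1, and the labels name their source both as a cell line and as a tumor. Whether a group's libraries were separate cultures or clones is not stated, and the p-values rest on a spread between libraries that may be technical only.

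Both families clear reactive chemicals from the cell. Aldo-keto reductases use NADPH to turn aldehydes and ketones into alcohols, and the Akr1c class acts largely on steroids. Glutathione transferases join the tripeptide glutathione to electrophiles, which transporters of the Abcc family then export. Many genes of both families are targets of NRF2, a transcription factor that KEAP1 holds down until oxidants or electrophiles release it. In people, lack of the transferase GSTM1 is a known risk factor for bladder cancer, since the urothelium meets carcinogens excreted in urine.

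Library totals ran from 15698510 to 24633158 counts, and 12907 genes had enough counts to be tested. The groups matched their names: genes of the Y chromosome held 6922, 7311 and 9171 counts in the Y-Scr libraries and 31, 57 and 36 in the Y-KO libraries. Of 16 urothelial and epithelial markers, 5 were tested; Krt8 and Krt18, keratins of simple epithelia, were abundant, while Epcam, Cdh1, Krt20 and Upk3a stood at 0 counts in all 6 libraries, so these defining markers of the urothelium and of epithelia were not detected. Of the 5, Krt8 (log2 fold change 0.36 ± 0.06, SE after ±) and Krt19 (2.37 ± 0.23) were higher and Gata3 (-1.48 ± 0.21) was lower in Y-KO, and the summed level of the list was 3365 to 3735 CPM in Y-Scr and 4031 to 4334 in Y-KO, without overlap. Markers of leukocytes (7 of 14 at 0 counts, Ptprc among them), endothelium and blood (no gene of either list passed the filter) and liver and adrenal (4 of 8 at 0, albumin among them) were at or near 0. The exception was Cd68, which made up most of the summed leukocyte level of 108 to 116 CPM in Y-Scr and 95.5 to 102 in Y-KO. Of 9 fibroblast and smooth muscle markers, 4 were tested, with 1 higher, 0 lower and a median log2 fold change of -0.07. The higher one was Pdgfra, at 8.68 ± 0.728 CPM in the controls and 14.4 ± 0.569 in Y-KO. The others tested were Dcn (0.25 ± 0.31), Col1a1 (-0.63 ± 0.44) and Des (-0.40 ± 0.47). The part of these markers in the results was not tested. In bulk RNA, fewer cells of a type and less RNA per cell cannot be told apart.

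Of the 39 genes, 27 passed the filter on low counts, 11 aldo-keto reductases and 16 glutathione transferases. In edgeR's quasi-likelihood test with Benjamini-Hochberg adjustment over all 12907 genes and a threshold of 0.05, 13 of the 27 (48.1%) were lower in Y-KO, against 23.0% of all tested genes, and 2 (7.41%) were higher, against 20.7%; in either direction 43.6% of all tested genes were called. With a change of at least 1.5-fold also asked for, 5 aldo-keto reductases and 4 transferases were lower, against 9.02% of all tested genes, and 1 transferase, Gstk1, was higher, against 4.7%. The groups did not overlap in 16 of the 27 (59.3%), against 52.9% of all tested genes. The median log2 fold change, Y-KO minus Y-Scr, was -0.44 over the 27 and -0.01 over all tested genes. Aldo-keto reductases accounted for 7 of the lower genes (7 of 11, median -0.70) and for none of the higher ones; none was higher at an unadjusted p under 0.05 either, nor with DESeq2 or limma-voom. Glutathione transferases split, with 6 lower, 2 higher and 8 not past the threshold (median -0.19, or 0.01 with the length trend described below removed). The lower genes were Akr1a1, Akr1b8, Akr1e1, the 4 tested Akr1c genes, Gstm2, Gsto2, Gstz1 and 3 of the 4 theta genes (Gstt1, Gstt3 and Gstt4). The higher genes were Gsta4 and Gstk1.

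Gene length moves with this comparison, so it is given before the single genes. By the gene length given in the table, the tested genes were put in 5 groups of about equal size. The shortest group, up to 1950 bases, had a median log2 fold change of -0.14, and the longest, from 7088 bases, one of 0.14. Of the 27 tested family genes, 18 lay in the shortest group. With a smooth length trend taken out of the fit, aldo-keto reductases stood at 6 lower and 0 higher (Akr1b8 no longer passed), and glutathione transferases at 4 lower and 5 higher, where Gsta1, Gstm1 and Gsto1 joined Gsta4 and Gstk1, and Gstm2 and Gstt4 no longer passed. The median was then -0.52 over the tested aldo-keto reductases, 0.01 over the tested transferases and 0.05 over all tested genes. All tested genes then stood at 19.4% lower and 25.7% higher. A trend over the length of the principal transcript, an alternative added after the data were seen, gave 6 lower and 1 higher aldo-keto reductase (Akr1b3) and 4 lower and 6 higher transferases, with 18.5% and 26.0% for all genes. The length-adjusted log2 fold changes given below come from the trend over the table's gene length. Both trends were fitted with an intercept, so these fits also rescaled each library. How far the shifts came from length and how far from scaling was not tested.

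**Figure D1:**
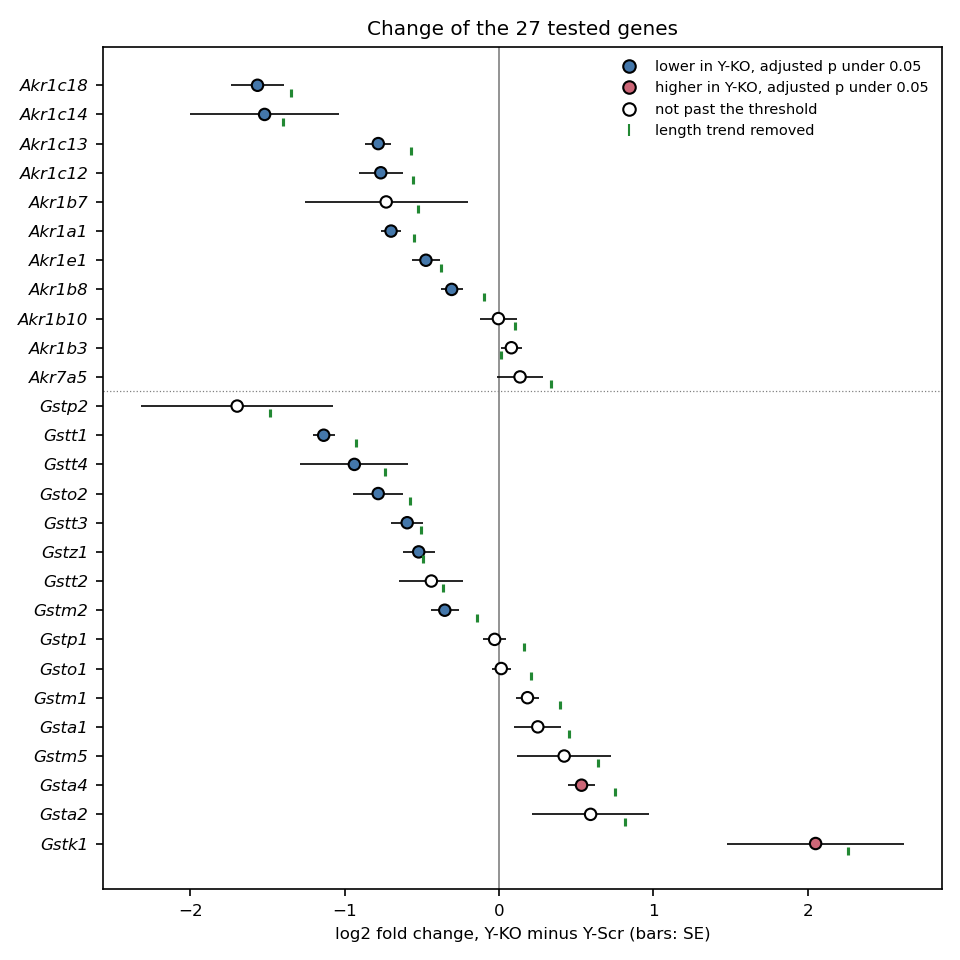
Log2 fold change (Y-KO minus Y-Scr, horizontal axis) of the 27 tested genes, aldo-keto reductases above the dotted line and glutathione transferases below it; points are estimates with bars of 1 standard error (SE), filled where the adjusted p was under 0.05, and green marks give the estimate with the length trend removed. The 4 tested Akr1c genes lie between -1.57 and -0.77, Gstt1 lies at -1.14, and Gsta4 and Gstk1 are the 2 filled points on the right; the green marks are shifted to the right of the points except for Akr1b3.

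The most similar pair in upstream sequence is Akr1c13 and Akr1c12, which lie on chromosome 13 with Akr1c19 between them and read in opposite directions. The 250 bases before the RefSeq transcript start were 92.5% identical, the highest value among the pairs compared. Gstp1 and Gstp2 (78.1%) and Gsta1 and Gsta2 (70.5%) followed. The pair is also shown for its similar log2 fold changes (-0.78 and -0.77), so it was picked on both, and a link between them was not tested. Log2 fold changes were -0.03 and -1.70 for Gstp1 and Gstp2, and 0.25 and 0.59 for Gsta1 and Gsta2, none past the threshold. Reads could also have been split between Akr1c13 and Akr1c12, as described below. The windows below run from 250 to 51 bases before the start (RefSeq, GRCm38.p6), written 5′ to 3′ on the gene's own strand, chr13:4190937-4191136 (+) for Akr1c13 and chr13:4279450-4279649 (-) for Akr1c12. Capitals mark bases that differ from the other gene or have no partner in it (8 mismatches and 8 unpaired positions, 92.2% identity). None of the windows shown overlaps an annotated exon.
Akr1c13: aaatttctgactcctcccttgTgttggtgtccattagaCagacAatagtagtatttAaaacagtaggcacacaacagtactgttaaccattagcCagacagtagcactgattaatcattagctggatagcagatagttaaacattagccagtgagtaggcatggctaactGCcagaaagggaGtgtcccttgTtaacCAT
Akr1c12: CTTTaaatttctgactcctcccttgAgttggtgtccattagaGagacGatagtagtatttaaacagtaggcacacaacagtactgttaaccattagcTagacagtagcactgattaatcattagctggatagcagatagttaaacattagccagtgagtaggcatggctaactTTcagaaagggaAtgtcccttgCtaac
The window of Gstt1, the glutathione transferase with the lowest adjusted p, is chr10:75797782-75797981 (-), with capitals for a match to the core of the interferon-stimulated response element (GAAA, 2 free bases, GAAA; here on the reverse strand) that lies 185 to 176 bases before the start. This start lies inside the gene span of the deposited table.
Gstt1: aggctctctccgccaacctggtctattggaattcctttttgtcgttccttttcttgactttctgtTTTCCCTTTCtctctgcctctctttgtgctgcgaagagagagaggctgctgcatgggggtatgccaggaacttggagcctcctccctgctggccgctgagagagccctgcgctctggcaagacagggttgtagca

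RefSeq promoters were found for 35 of the 39 genes, and 4 short motifs were searched on both strands of the 250 upstream bases. Gsta4, Akr1b3, Gstt2 and Akr1c20 had no matched promoter and were not searched. TGACNNNGC, the core of the antioxidant response element that NRF2 binds, was present before 4 genes (Akr1cl, Gsta3, Gstm5 and Gstm7), of which only Gstm5 was tested; 10.2% of 32851 RefSeq promoters of that length hold it. GCGTG, the core bound by the aryl hydrocarbon receptor, was present before 6 genes (Akr1b8, Gsta2, Gstm1, Gstm5, Gstp1 and Gstp3) and in 28.2% of promoters. TGANTCA, bound by AP-1, was present before Gstm5, Gstp1 and Gstp2 and in 6.75% of promoters. The core of the interferon-stimulated response element was present before Akr1c14 and Gstt1 and in 2.98% of promoters. TGANTCA and TGACNNNGC can overlap, and a match is a description of these letters only.

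Levels of different genes were compared per length, in TPM, here counts divided by the principal transcript's length (GENCODE M21) and scaled to the same sum in every library. In Y-Scr, 3 genes stood far above the rest: Akr1a1 at 922 ± 25.7 TPM (mean ± SD, n = 3, as for all group values here), Gsto1 at 867 ± 12.2 and Gstp1 at 773 ± 40.9. The ranges of Akr1a1 and Gsto1 in TPM lay close together, while Akr1b3 followed at 312 ± 7.69 and Gstt1 at 230.2 ± 6.55. In Y-KO, Akr1a1 stood in the third place, at 631 ± 34.0 TPM, behind Gsto1 at 973 ± 31.1 and Gstp1 at 844 ± 75.4. TPM serves here to rank genes within a group. Changes between groups are read in CPM below, where neither Gsto1 nor Gstp1 passed the threshold. The length chosen matters most for Akr1b3, whose length in the table is 8384 bases against 1387 for the principal transcript: its mean over the 6 libraries was 339 TPM with the transcript's length and 85.0 with the table's. With the table's length, Gstp1 led at 1327 TPM over all libraries, ahead of Gsto1 at 836 and Akr1a1 at 607.

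**Figure D2:**
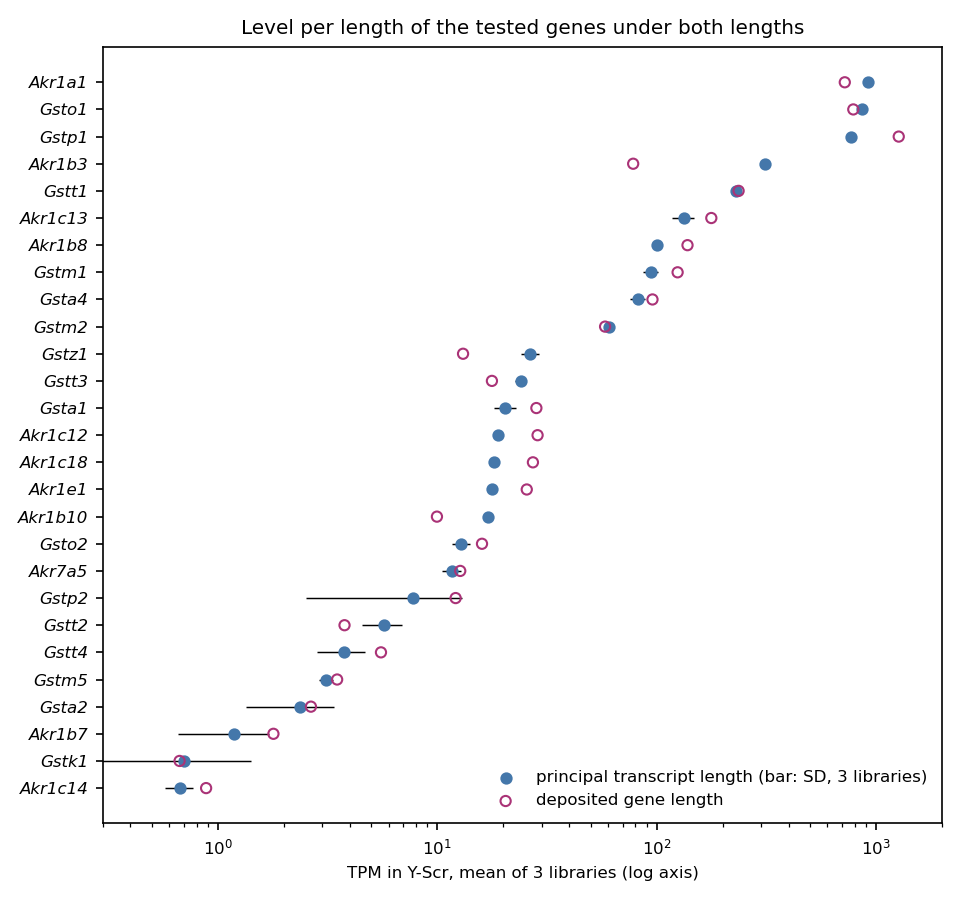
Level per length of the 27 tested genes in Y-Scr (TPM, log axis, mean of 3 libraries), with filled points for the principal transcript length (bars: SD) and open circles for the length in the deposited table. Akr1a1, Gsto1 and Gstp1 lie between 773 and 922 TPM by the principal length, and the 2 lengths differ most for Akr1b3.

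Summed over the aldo-keto reductases, the Y-Scr libraries held 1586, 1560.3 and 1516 TPM and the Y-KO libraries 1296, 1168 and 1261, without overlap. The glutathione transferases summed to 2168, 2219 and 2267 TPM in Y-Scr and 2383, 2230.5 and 2393 in Y-KO, which overlapped. The shares of the classes in these sums also differed between the groups. Akr1a1 made up 59.3% of the aldo-keto reductase sum in Y-Scr and 50.8% in Y-KO, while the Akr1b class went from 27.8% to 38.4% and the Akr1c class from 11.0% to 8.5%. Among the transferases, the theta class went from 11.9% to 6.04%, the alpha class from 4.76% to 7.04%, the omega class from 39.7% to 42.0% and the pi class from 35.3% to 36.3%. The direction of a difference in these sums can depend on the scaling. For the transferases the ratio of Y-KO to Y-Scr was 1.05 in TPM and 0.943 in CPM on TMM-scaled library sizes. For the pi class it was 1.08 and 0.974, and for the aldo-keto reductases 0.799 and 0.719. The shares also depend on the length used. With the table's length, the Akr1b class summed to 228 TPM in Y-Scr and 228 in Y-KO. All aldo-keto reductases then summed to 1222 and 901 TPM. The pi class then lay above the omega class, at 1284 against 804 TPM in Y-Scr. These sums are descriptions and were not tested.

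Changes between groups are given in CPM, counts scaled to the library size after TMM normalization, with the 3 libraries of each group in the order of their replicate numbers, and a value after ± that follows a log2 fold change is its SE. Coordinates are those of the deposited table (GRCm38). Akr1a1, at chr4:116636510-116651680, encodes the main aldehyde reductase, which in mice also serves the synthesis of ascorbate from glucuronate. It stood at 767, 781 and 785 CPM in Y-Scr and at 507, 449 and 481 in Y-KO. Every Y-KO library lay far below every Y-Scr library, and the log2 fold change was -0.70 ± 0.06 (adjusted p = 3.59e-08) in edgeR's quasi-likelihood test. With the length trend removed it was -0.55.

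The Akr1b class, at chr6:34302434-34423142, holds aldose reductase, Akr1b3, which turns glucose into sorbitol in the polyol pathway, and 3 relatives. Akr1b3 measured 251, 265 and 257 CPM in Y-Scr against 293, 248 and 275 in Y-KO, with overlapping groups and a log2 fold change of 0.08 ± 0.07 (adjusted p = 0.363). Its call depends on the length used: it became 0.01 with the trend over the table's length and 0.29, past the threshold, with that over the principal transcript. Of the 50-base windows of its transcripts, 55.2% also occur in other genes, mainly the pseudogenes Gm6644, Gm6736 and Gm12138, so its counts are uncertain. Akr1b8, which reduces lipid-derived aldehydes, was 81.4 ± 3.47 CPM in Y-Scr compared with 65.8 ± 2.20 in Y-KO. Its log2 fold change was -0.31 ± 0.07 (adjusted p = 0.00167), and -0.10 (adjusted p = 0.264) with the length trend removed. Akr1b10 did not pass the threshold (-0.00 ± 0.12, adjusted p = 0.979), nor did Akr1b7, a gene known from the vas deferens and adrenal, which had 11 to 18 counts per Y-Scr library and 5 to 11 per Y-KO library (-0.73 ± 0.53, adjusted p = 0.282).

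The Akr1c class, the hydroxysteroid dehydrogenases, lies with Akr1e1 at chr13:4049011-4609174. All 4 tested genes of the class were lower in Y-KO, against 23.0% of all tested genes. The groups did not overlap in any of the 4, nor in 52.9% of all tested genes. Akr1c13 was the most abundant, with 92.7, 115 and 92.7 CPM in Y-Scr against 59.7, 54.5 and 60.0 in Y-KO, a log2 fold change of -0.78 ± 0.09 (adjusted p = 5.74e-07). Akr1c12 stood at 14.0, 13.6 and 15.0 CPM in Y-Scr compared with 9.99, 7.53 and 7.48 in Y-KO, and its log2 fold change of -0.77 ± 0.14 (adjusted p = 2.66e-04) was close to that of Akr1c13. Of the 50-base windows of their transcripts, 28.6% are shared, in addition to the near-identical upstream sequences above, so reads could have been split between the pair.

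Akr1c18, the enzyme that inactivates progesterone, had the most negative log2 fold change of the tested aldo-keto reductases. It went from 11.8, 13.9 and 13.2 CPM in Y-Scr to 4.57, 3.36 and 5.15 in Y-KO, a log2 fold change of -1.57 ± 0.17 (adjusted p = 5.45e-07), or 2.96-fold lower. Akr1c14, which reduces androgens and progesterone metabolites, was near the limit of what the depth allows, with 18, 21 and 23 counts in Y-Scr and 5, 9 and 6 in Y-KO, or 1.14, 1.27 and 0.961 CPM against 0.269, 0.560 and 0.340. The groups did not overlap, and the log2 fold change was -1.52 ± 0.48 (adjusted p = 0.0152). The call on the log2 fold change of Akr1c14 was lost in DESeq2 (adjusted p = 0.0544) and without Y-Scr replicate 2 (0.0637), Y-KO replicate 1 (0.0769) or Y-KO replicate 3 (0.0632). The other 5 Akr1c genes were not tested: Akr1c6, Akr1c20 and Akr1cl had 0 counts in every library, Akr1c21 had 4 counts in all and Akr1c19 had 3.

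Akr1e1, which reduces a sugar derived from glycogen, lies at the far end of the same stretch of chromosome 13. It stood at 35.8, 37.8 and 36.1 CPM in Y-Scr against 25.4, 25.3 and 28.2 in Y-KO, without overlap, a log2 fold change of -0.47 ± 0.09 (adjusted p = 2.93e-04). Akr7a5 (chr4:139310744-139318426), an aflatoxin aldehyde reductase, stood at 9.11, 8.11 and 9.65 CPM in Y-Scr compared with 9.67, 11.0 and 9.01 in Y-KO, where the groups overlapped (0.14 ± 0.15, adjusted p = 0.487). Akr1d1, the liver enzyme of bile acid synthesis, had 0 counts in all 6 libraries.

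**Figure D3:**
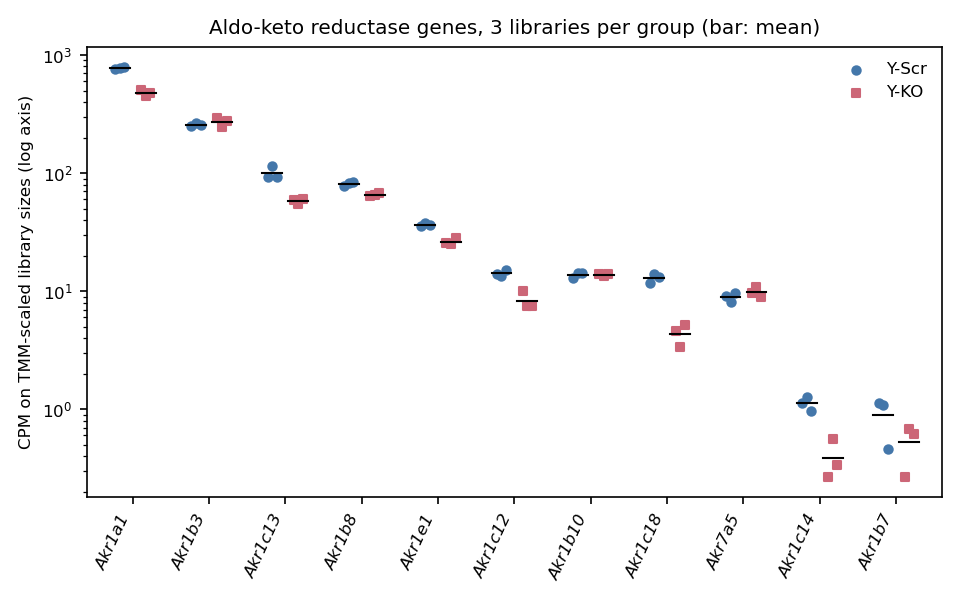
CPM (log axis) of the 11 tested aldo-keto reductase genes in each library, circles for Y-Scr and squares for Y-KO, with a bar at the group mean. The squares lie below the circles without overlap for Akr1a1, Akr1b8, Akr1e1 and the 4 Akr1c genes, and overlap with them for Akr1b3, Akr1b10, Akr1b7 and Akr7a5.

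Among the glutathione transferases, 3 of the 4 theta genes, at chr10:75774115-75837424, were lower, against 23.0% of all tested genes. Gstt1, at chr10:75783813-75798584, which acts on small halogenated compounds, stood at 131, 147 and 147 CPM in Y-Scr against 67.8, 64.7 and 61.2 in Y-KO. The groups were well apart, with a log2 fold change of -1.14 ± 0.07 (adjusted p = 1.69e-10) in edgeR's quasi-likelihood test, 2.20-fold lower. Gstt3 stood at 25.9, 28.6 and 25.9 CPM in Y-Scr compared with 18.4, 16.2 and 18.5 in Y-KO, also without overlap (-0.60 ± 0.10, adjusted p = 1.06e-04), and shares 20.2% of its 50-base windows with Gm20441, an overlapping gene model on the same strand. Gstt4 had 41, 35 and 41 counts in Y-Scr and 21, 14 and 23 in Y-KO, again without overlap in CPM (-0.94 ± 0.35, adjusted p = 0.0365), but it passed the threshold in only 7 of 17 alternative fits. Gstt2 was 6.18 ± 1.45 CPM in Y-Scr against 4.59 ± 0.723 in Y-KO, with overlapping groups (-0.44 ± 0.21, adjusted p = 0.0950). In TPM the class summed to 257, 269 and 266 in Y-Scr and 147, 139.5 and 136 in Y-KO.

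In the alpha class, whose tested members lie at chr9:78182774-78355788, 1 of 3 tested genes passed the threshold, and it was higher. Of all tested genes, 20.7% were higher. Gsta4, which conjugates the lipid peroxidation product hydroxynonenal, stood at 42.5, 47.6 and 53.0 CPM in Y-Scr compared with 68.0, 69.3 and 70.3 in Y-KO. All Y-KO libraries were above all Y-Scr libraries, and the log2 fold change was 0.53 ± 0.08 (adjusted p = 4.92e-05), or 0.75 with the length trend removed. Gsta1 and Gsta2, basic transferases known from liver, gave 0.25 ± 0.15 (adjusted p = 0.196) and 0.59 ± 0.38 (adjusted p = 0.223) and did not pass the threshold; with the length trend removed Gsta1 did, at 0.45 (adjusted p = 0.0136). Both are uncertain, since 89.7% of the 50-base windows of Gsta1 and 47.4% of those of Gsta2 occur in other genes of the cluster (Gm3776 and Gm10639 among them). Gm3776, which holds 82.9% of the windows of Gsta1, was itself higher in edgeR's quasi-likelihood test (0.46 ± 0.14, adjusted p = 0.0145). Gsta3 was not tested, with 61 counts over the 6 libraries and means of 0.533 and 0.536 CPM in Y-Scr and Y-KO.

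Gstk1 (chr6:42245935-42250447), the kappa class enzyme of mitochondria and peroxisomes, was rare, with 12, 0 and 9 counts in Y-Scr and 25, 28 and 29 in Y-KO, or 0.759, 0 and 0.376 CPM against 1.34, 1.74 and 1.64. Each Y-KO library was above each Y-Scr library, and 1 Y-Scr library had no count at all. The log2 fold change was 2.05 ± 0.57 (adjusted p = 0.00692), and the ratio of summed counts per library size was 4.20 (exact 95% interval 2.57 to 7.14, counting error only). It was called higher in all 17 alternative fits, with values between 1.52 and 2.85. The log2 fold change of Gstk1 was 2.84 without Y-Scr replicate 1 and 1.52 without Y-Scr replicate 2, the library with no count.

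In the mu class, at chr3:107895821-108044894, Gstm1 was the most abundant, with 71.1, 67.0 and 78.2 CPM in Y-Scr against 79.6, 83.7 and 82.6 in Y-KO. The groups did not overlap, yet the log2 fold change of 0.18 ± 0.07 missed the threshold (adjusted p = 0.0513); with the length trend removed it was 0.40 (adjusted p = 7.35e-05), and it also passed with RLE, upper-quartile or total-count scaling. Gstm2 was lower, 38.4 ± 2.32 CPM in Y-Scr against 30.1 ± 2.05 in Y-KO, -0.35 ± 0.09 (adjusted p = 0.00389), and -0.15 (adjusted p = 0.180) with the length trend removed. The opposite signs of Gstm1 and Gstm2 held in every alternative fit run. Gstm5 gave 0.42 ± 0.30 (adjusted p = 0.283); it shares 178 exon bases with 4933431E20Rik on the other strand, and how strand was used in the counting is not stated. Of the untested mu genes, Gstm6 had 20, 11 and 14 counts in Y-Scr and 5, 6 and 8 in Y-KO, without overlap, and Gstm7 8, 1 and 18 against 0, 5 and 4. Gstm4 had 1 count in all and Gstm3 none.

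The 2 omega genes lie side by side at chr19:47854970-47886324. Gsto1, a thioltransferase that also reduces dehydroascorbate, stood at 581, 629 and 617 CPM in Y-Scr compared with 642, 594 and 608 in Y-KO, with overlapping groups (0.01 ± 0.06, adjusted p = 0.878), and at 0.21 (adjusted p = 0.00342) with the length trend removed. Gsto2, its relative, stood at 10.1, 10.04 and 9.02 CPM in Y-Scr against 6.50, 5.17 and 5.21 in Y-KO, without overlap (-0.78 ± 0.16, adjusted p = 6.79e-04). Both lie inside the span of Cfap43 on the other strand but share no exon base with it.

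Gstp1 (chr19:4035407-4037921), the pi class enzyme that many tumors express strongly, stood at 344, 379 and 410.1 CPM in Y-Scr compared with 380.0, 333 and 398 in Y-KO, with overlapping groups (-0.03 ± 0.08, adjusted p = 0.786). Gstp2, its neighbour, had 14, 96 and 107 counts in Y-Scr and 16, 25 and 19 in Y-KO. Its first Y-Scr library was at the level of the Y-KO libraries, and the log2 fold change of -1.70 ± 0.62 missed the threshold (adjusted p = 0.0603); without that library it was -2.13 and passed. About 50% of the 50-base windows of each gene (51.0% of Gstp1, 50.4% of Gstp2) occur in other pi genes or the pseudogene Gstp-ps, so the counts of both are uncertain. Gstp3 was not tested, at 6, 8 and 20 counts in Y-Scr and 7, 2 and 17 in Y-KO. Gstz1 (chr12:87147165-87164723), which isomerises maleylacetoacetate in the breakdown of tyrosine, stood at 25.3, 29.1 and 24.2 CPM in Y-Scr against 19.1, 17.7 and 17.8 in Y-KO, without overlap (-0.52 ± 0.10, adjusted p = 4.79e-04). It shares 465 exon bases, 9.14% of its own, with Pomt2 on the other strand.

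**Figure D4:**
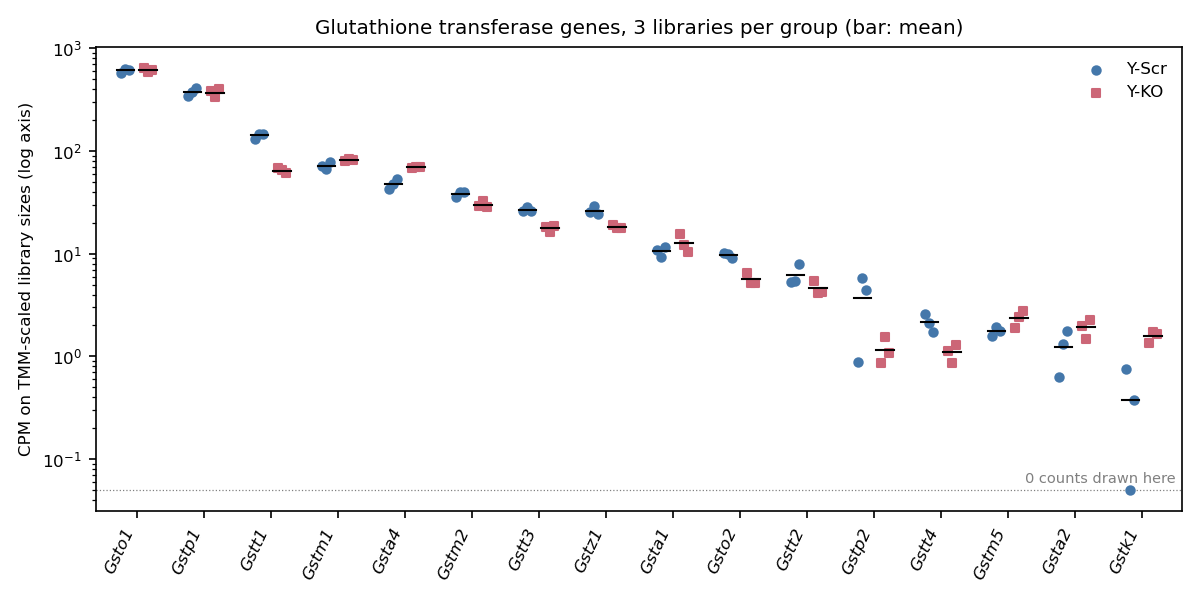
CPM (log axis) of the 16 tested glutathione transferase genes in each library, circles for Y-Scr and squares for Y-KO, with a bar at the group mean; a library with 0 counts is drawn at the dotted line. The squares lie below the circles without overlap for Gstt1, Gstt3, Gstt4, Gsto2, Gstz1 and Gstm2, and above them without overlap for Gsta4, Gstk1 and Gstm1.

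Most of these genes lie in clusters, so the 5 nearest tested genes on each side, at whatever distance, were set beside them. Around Akr1a1 on chromosome 4, 9 of 10 flanking genes were lower and none higher (none at an unadjusted p under 0.05, with DESeq2 or with limma-voom either), with a median log2 fold change of -0.70, the same as that of Akr1a1. They included Prdx1, a peroxidase and NRF2 target 33.9 kb away (-0.96 ± 0.06), Tmem69 (-1.04 ± 0.09) and Gpbp1l1 (-0.81 ± 0.08), while Tesk2 did not pass (-0.26 ± 0.24). Within 1 Mb on each side, a window chosen after the values were seen, 14 of 36 tested genes were lower (38.9%, against 23.0% of all tested genes) and 5 higher.

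The 9 genes from Akr1c14 to Akr1e1 span 560 kb of chromosome 13, all 5 tested ones were lower, and of the 10 flanking genes 3 were lower and 2 higher (median 0.15). The nearest flank on the Akr1e1 side, AC133498.1, and the next, Klf6, were among the lower ones (-1.65 ± 0.43 and -1.23 ± 0.07). They lay 930 kb and 1252 kb away. The 4 theta genes span 63.3 kb of chromosome 10, 3 of them were lower, and of their flanking genes 2 were lower and 4 higher (median 0.09). Around the mu genes on chromosome 3, 1 flanking gene was lower and 4 were higher, and around the alpha genes on chromosome 9, 1 was lower and 3 were higher. Around the omega genes on chromosome 19, 4 were lower and 5 higher, with Cfap58, 51.4 kb away, at -2.30 ± 0.17. Some flanks were far off: the next on that side, Xpnpep1, lay 5057 kb away, and Mkln1 lay 2786 kb from the Akr1b genes. Lower and higher flanks numbered 2 and 1 for the Akr1b genes, Akr7a5 and Gstk1, 1 and 1 for the pi genes, and 1 and 3 for Gstz1. Of all tested genes, 23.0% were lower and 20.7% higher. The part of the neighbourhood in the fall of Akr1a1 was not tested.

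The pathway lists are read against the 20.7% of all tested genes that were higher, the 23.0% that were lower and the median of -0.01. Of 16 tested genes that make and recycle glutathione, 3 were higher, a share near that of all genes, and 7 were lower (median -0.14). Gclm, the regulatory subunit of the rate-limiting ligase, went from 50.7 ± 4.67 CPM in Y-Scr to 74.1 ± 3.38 in Y-KO (0.55 ± 0.08, adjusted p = 2.42e-05). The other 2 higher genes, named after their values were seen, were its catalytic subunit Gclc (0.45 ± 0.09) and the reductase Gsr (0.39 ± 0.07). Ggt7, of the gamma-glutamyltransferase family, fell from 31.2 ± 3.25 to 12.8 ± 0.816 CPM (-1.29 ± 0.11, adjusted p = 1.72e-08). Gpx4, the phospholipid hydroperoxidase (-0.65 ± 0.07), and Slc3a2, the heavy chain of the cystine importer (-0.61 ± 0.06), were also lower. The remaining lower genes, likewise named after their values were seen, were Chac2 (-0.58 ± 0.10), Gss (-0.30 ± 0.09), Gpx1 (-0.27 ± 0.07) and Slc7a11 (-0.24 ± 0.07).

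The membrane-bound glutathione transferases, unrelated in sequence to the families above, had 4 of 6 tested genes lower, against 23.0% of all tested genes, and none higher, against 20.7% (none at an unadjusted p under 0.05 or with DESeq2 or limma-voom), with a median of -0.50. Mgst2 stood at 24.6, 34.9 and 35.3 CPM in Y-Scr compared with 14.7, 13.1 and 12.8 in Y-KO (-1.23 ± 0.13, adjusted p = 4.58e-07). Mgst3 (-0.54 ± 0.07), the prostaglandin synthase Ptges (-0.46 ± 0.06) and the leukotriene synthase Ltc4s (-0.59 ± 0.19) were also lower. Of 8 other proteins with a glutathione transferase fold, 3 were lower and none higher, against the same 23.0% and 20.7% (none at an unadjusted p under 0.05 or with DESeq2 or limma-voom): Clic1 (-0.40 ± 0.06), Eef1e1 (-0.40 ± 0.07) and Clic4 (-0.23 ± 0.06), while Eef1g, at -0.13 ± 0.06, did not pass. Of single transporters that export conjugates, Abcc1 (0.27 ± 0.07) and Abcc5 (0.28 ± 0.07) were higher and Abcc4 was lower (-0.27 ± 0.07).

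Other carbonyl and aldehyde enzymes counted 3 higher and 8 lower of 21, against 20.7% and 23.0% of all tested genes (median -0.09). Cbr3, a carbonyl reductase, had 1 count in all of Y-Scr and 80, 46 and 53 in the Y-KO libraries, a ratio of 192 with an exact 95% interval of 34.1 to 7643. Adh7, an alcohol dehydrogenase of epithelia that oxidises retinol, fell from 61.1 ± 6.72 CPM to 30.6 ± 1.99 (-0.99 ± 0.09, adjusted p = 9.74e-08), and the glutathione thioester hydrolases Hagh (-0.45 ± 0.07) and Esd (-0.37 ± 0.06) were lower. On the polyol and methylglyoxal routes, 3 of 7 were higher and 2 lower, against the same shares (median 0.10). Sord, which turns the sorbitol made by Akr1b3 into fructose, was higher (0.39 ± 0.07, adjusted p = 1.30e-04), as were the hexokinases Hk1 (0.44 ± 0.07) and Hk2 (0.52 ± 0.09). The cytochrome P450 Cyp2s1, given here as a single gene, was higher, at 2.47, 1.51 and 2.34 CPM in Y-Scr against 13.5, 15.6 and 15.4 in Y-KO (2.80 ± 0.19, adjusted p = 4.58e-10).

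NRF2 itself was looked at through its partners and its marker targets. Of 10 tested genes for NRF2, the aryl hydrocarbon receptor and their partners, 6 were lower and 1 higher, against 23.0% and 20.7% of all tested genes (median -0.20). Maff, a small MAF partner of NRF2, stood at 120.1, 138 and 119 CPM in Y-Scr compared with 45.8, 51.6 and 45.4 in Y-KO (-1.40 ± 0.08, adjusted p = 3.62e-11), Mafk at -0.46 ± 0.06 and Ahr, the receptor, at -0.46 ± 0.10. The higher one was Keap1, the inhibitor of NRF2, with 40.5 ± 4.54 CPM in Y-Scr against 58.1 ± 3.39 in Y-KO (0.52 ± 0.09, adjusted p = 1.47e-04). Nfe2l2, which encodes NRF2 and is named after its value was seen, was at -0.21 ± 0.06 (adjusted p = 0.00900). Of 11 tested targets commonly used as markers of NRF2, 6 were higher and 1 lower, against 20.7% and 23.0% (median 0.22): Hmox1 (0.48 ± 0.06), Pgd (0.45 ± 0.06) and Txnrd1 (0.39 ± 0.06) rose, and the 1 that fell was Prdx1, the neighbour of Akr1a1, from 1648 ± 77.0 CPM to 846 ± 8.60.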

How the data were processed

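Whole-number read counts per gene, not normalized, came from the deposited table, with gene coordinates and lengths. The submitters' processing notes name Trimmomatic 0.39 and STAR 2.5.2b, featureCounts 1.5.3, DESeq2, and for quality FastQC 0.12.1 and MultiQC 1.13; mm39 (GRCm39) is the build in those notes. No source used here states the strand setting. Yet 98.3% of the 54409 genes shared with a GRCm38 annotation (GENCODE M21), and 35 of the 39 family genes, carried identical coordinates there, so GRCm38 is the build given.

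From the counts, edgeR 4.0.16 in R 4.3.3 was fitted to all 6 libraries with TMM scaling, filterByExpr, group as its single term and a robust quasi-likelihood test, adjusted by Benjamini-Hochberg over 12907 genes at a threshold of 0.05. The SE is the log2 fold change divided by the square root of the F statistic. The alternatives were other scalings and filters, protein-coding genes only, spline length trends (4 degrees of freedom), a replicate block, DESeq2 1.42.0, limma-voom (limma 3.58.1), a 1.5-fold minimum and each library left out. The fits were tested on simulated data. Of 97 genes set to change 1.5-fold, 63.9% were called, and of 97 set to change 2-fold, 81.4%. In the simulation 12522 of 12716 genes were left unchanged, whereas 43.6% of tested genes were called in the data. The adjusted threshold was thus stricter there, and these shares do not give the sensitivity of this comparison. A gene not past the threshold may still have changed. TPM used the median length of the principal transcripts. A count of 3 corresponds to 0.122 to 0.191 CPM per library, and intervals cover counting error only, since PCR copies were not marked. Between replicates, the chi-square per degree of freedom was 3.44 to 14.8, above sampling noise.

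Every tested family gene was named. Those past the threshold with a log2 fold change of at least 0.5 in either direction, and the most abundant of each class, were given per library; untested genes were named from 10 counts, and up to 4 genes of each pathway list by adjusted p. The family genes and all lists were chosen with earlier results of these data known. For 2 pathway lists the result of the list is not reported here, and single genes of them are named without a count.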

Additional observations from a re-analysis of the deposited data

How the results depend on the processing

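Each tested gene was refitted in up to 17 other ways. For the family genes, 408 of these estimates kept their direction and their side of the threshold, 15 moved past it, 18 fell short of it and 16 changed sign. The 16 belong to 3 genes near 0 that were not called. The log2 fold change of Akr1b10 turned positive with RLE scaling (0.00435), upper-quartile scaling (0.00647), library totals (0.0537), DESeq2 (0.00474) and the length trend removed (0.102, or 0.209 with the principal transcript's length), and ranged from -0.0465 to 0.0253 with 1 library left out. The log2 fold change of Gstp1 turned positive with library totals (0.0293) and the length trends removed (0.160, or 0.189 and past the threshold with the principal transcript's length), and ranged from -0.0837 to 0.0427 with 1 library left out. The log2 fold change of Gsto1 ranged from -0.0170 to 0.0439 with 1 library left out. Among the list genes, the log2 fold change of Eef1g turned positive with the length trends removed (0.0292 and 0.0445).

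Lower aldo-keto reductases numbered 5 to 7 and lower transferases 4 to 6 in all alternatives run. Higher aldo-keto reductases went from 0 to 1 with the principal transcript length trend removed. Higher transferases went from 2 to 5 with the length trend removed, to 6 with that of the principal transcript and to 1 where a 1.5-fold change was also asked for, and stood at 2 to 3 with 1 library left out. Gstt4 was not called in 10 of 17 alternatives: without the low-count filter, in both length fits, in DESeq2, in the block and without Y-Scr replicate 1 or 2 or any 1 Y-KO library.

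Replicate numbers are shared by the groups, but same-numbered libraries did not deviate together (correlations -0.06, -0.03 and -0.02), so the numbers were not taken as pairs. With the replicate number as a block, the counts were again 0 higher and 7 lower aldo-keto reductases and 2 higher and 6 lower transferases. The block removed the call on the log2 fold change of Gstt4 (adjusted p = 0.0565 in edgeR) and added one on the log2 fold change of Gstp2 (-1.51, adjusted p = 0.00387). Over all genes it called 2333 higher and 2627 lower, against 2667 and 2966.

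Depth limits Akr1c14, Akr1b7, Gstk1, Gsta3, Gstm6, Gstm7 and Gstp3, which had fewer than 30 counts in every library.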
